A study of Mus musculus with 20 samples.

Results

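Among 20 bulk RNA libraries of mouse hippocampus, 4 held the adenosine A2a receptor transcript Adora2a at 10 CPM or more, and the other 16 held it at under 10 CPM. CPM, the unit of level used here, is the raw count of a gene divided by the total count of its library and multiplied by 1000000. The 4 libraries were melanoma replicates 1, 3 and 5 and melanoma plus ICI replicate 3, where ICI stands for immune checkpoint inhibitors. In that order Adora2a was at 22.0, 68.4, 32.1 and 26.4 CPM. In the 16 others the lowest value was 1.24, the median 2.26 and the highest 2.95 CPM, so no library lay between 2.95 and 22.0 CPM. The 4 libraries were chosen by these Adora2a values, which were therefore given no test. In the deposited coordinates Adora2a (ENSMUSG00000020178) lies at chr10:75316943-75334788 on the plus strand.

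All mice were adult wild-type males of 10 to 12 weeks, and 1 hippocampus was used from each. The control group carried no tumour and was given isotype antibody. The ICI group carried no tumour and was given anti-CTLA-4, 1 mg per dose and 3 doses a week, with anti-PD-1, 200 µg per dose and 2 doses a week. The melanoma group had D4M-3A.UV2 mouse melanoma cells injected into the skin on both sides, 500000 cells at each site with 1 week to engraft, and was given isotype antibody. The melanoma plus ICI group had the same tumours and the same pair of checkpoint antibodies, for which the labels state 3 weeks. Tissue was taken 72 hours after the last injection. With 5 mice in each group, the division put 3 of 5 melanoma libraries, 1 of 5 melanoma plus ICI libraries and 0 of the 10 tumour-free libraries on the higher side. The question was which other transcripts were higher or lower where Adora2a was high, first over all libraries and then among the 10 tumour-bearing ones, which hold all 4.

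The striatum is the input nucleus of the basal ganglia and lies in front of and beside the hippocampus in the forebrain. Most of its neurons are GABAergic spiny projection neurons. Those of the direct pathway carry the dopamine D1 receptor and substance P, and those of the indirect pathway carry the dopamine D2 receptor, enkephalin and the adenosine A2a receptor. In both types the G protein Golf and adenylyl cyclase 5 act on cyclic AMP, with phosphodiesterases and the phosphoprotein DARPP-32 downstream. The hippocampus is built mainly of dentate granule cells and pyramidal cells of fields CA1 to CA3, in which Adora2a is known to be sparse. In bulk RNA, more cells of a type and more transcript per cell cannot be told apart.

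Depth was alike on both sides, with 22198058 to 25735149 counts in the 4 libraries and 21990624 to 25032254 in the 16. Mitochondrial transcripts took 3.15% to 3.79% of counts in the 4 and 3.08% to 5.10% in the 16. Control replicate 4 and melanoma plus ICI replicate 1, both among the 16, stood apart from the rest on the first principal component, at -72.1 and -62.1, where the other 18 lay between -27.9 and 41.4. That component held 23.0% of the variance. Beside them, the 4 libraries were at 2.1, -8.6, 11.4 and 9.2. P-values below measure only the spread between these samples, and the sides were set by a gene of the same libraries.

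Sequence upstream of these genes is shown first for 3 transcripts that the results turn on, the D2 receptor gene Drd2, the tachykinin precursor gene Tac1 and the orphan receptor gene Gpr6. Each window runs from 250 bases before to 50 bases after a transcription start, from RefSeq on GRCm38.p6. Capitals mark the half-site of the cyclic AMP response element, TGACG or its complement CGTCA, and the GC box, GGGCGG or its complement CCGCCC. The Drd2 window is chr9:49340153-49340452 on the plus strand, that of Tac1 is chr6:7554811-7555110 on the plus strand, and that of Gpr6 is chr10:41072241-41072540 on the minus strand.
Drd2: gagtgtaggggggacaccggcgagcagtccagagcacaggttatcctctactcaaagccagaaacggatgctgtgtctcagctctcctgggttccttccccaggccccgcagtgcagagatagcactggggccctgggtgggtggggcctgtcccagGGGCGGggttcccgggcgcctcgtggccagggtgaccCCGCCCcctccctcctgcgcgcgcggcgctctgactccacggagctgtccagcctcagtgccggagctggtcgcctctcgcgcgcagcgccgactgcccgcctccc
Tac1: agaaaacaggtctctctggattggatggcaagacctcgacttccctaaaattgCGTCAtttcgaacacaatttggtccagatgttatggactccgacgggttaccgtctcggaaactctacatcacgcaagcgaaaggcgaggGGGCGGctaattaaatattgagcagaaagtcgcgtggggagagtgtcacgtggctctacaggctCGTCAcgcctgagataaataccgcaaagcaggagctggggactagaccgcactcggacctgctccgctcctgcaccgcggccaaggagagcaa
Gpr6: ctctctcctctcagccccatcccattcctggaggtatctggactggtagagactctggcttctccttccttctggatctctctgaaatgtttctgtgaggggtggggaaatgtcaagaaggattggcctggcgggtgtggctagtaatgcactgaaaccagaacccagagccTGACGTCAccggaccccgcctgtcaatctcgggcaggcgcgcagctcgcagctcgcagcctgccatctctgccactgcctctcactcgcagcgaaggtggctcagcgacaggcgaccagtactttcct
The Gpr6 window holds the full palindrome TGACGTCA, in which both half-sites overlap. Drd2 has 2 GC boxes and no half-site, and Tac1 has 2 half-sites and 1 GC box. Of the 26 spiny neuron genes that were higher in the 4 libraries, 17 matched a RefSeq window, with 24 windows in all. A half-site occurred in 16.7% of those windows and in 20.8% of all 32851 promoter windows. The full element occurred in 4.17% and 1.79%, TATAAA or its complement in 12.5% and 13.6%, and a GC box in 62.5% and 35.7%. Of the 138 windows of all genes that were higher in the 4 libraries, 60.1% held a GC box. The 32851 windows come from 27025 genes, whether or not they were tested here, and 1 gene can hold several. No comparison was made with windows of the tested genes alone. These matches describe letters in the windows and no site of binding was measured.

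Many transcripts of striatal spiny projection neurons were higher in the 4 libraries. Over all 20 libraries, 130 of 18657 genes tested (0.697%) were higher at an adjusted p under 0.05 in edgeR's quasi-likelihood test, and 5 (0.0268%) were lower, 0.724% in either direction. Of 44 tested members of 3 lists of spiny neuron genes, 26 were higher and 0 were lower, so these lists held 26 of the 130 genes that were higher. Of these, 15 of the 130 and 1 of the 26, Ido1, passed the filter on low counts only through the 4 libraries. In all, 260 of the 18657 genes tested passed in that way. Such genes were tested only because of their level in the 4, so their calls give no support here. Of the 43 other spiny neuron genes 25 were higher. The median log2 fold change of these 43 was 0.94, and 1.03 with Ido1, beside -0.01 over all genes tested. For 22 of the 44, each of the 4 libraries was above each of the 16, against 0.541% of all genes. The lists were drawn up with earlier results of these data known and give no independent evidence of direction.

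**Figure D1:**
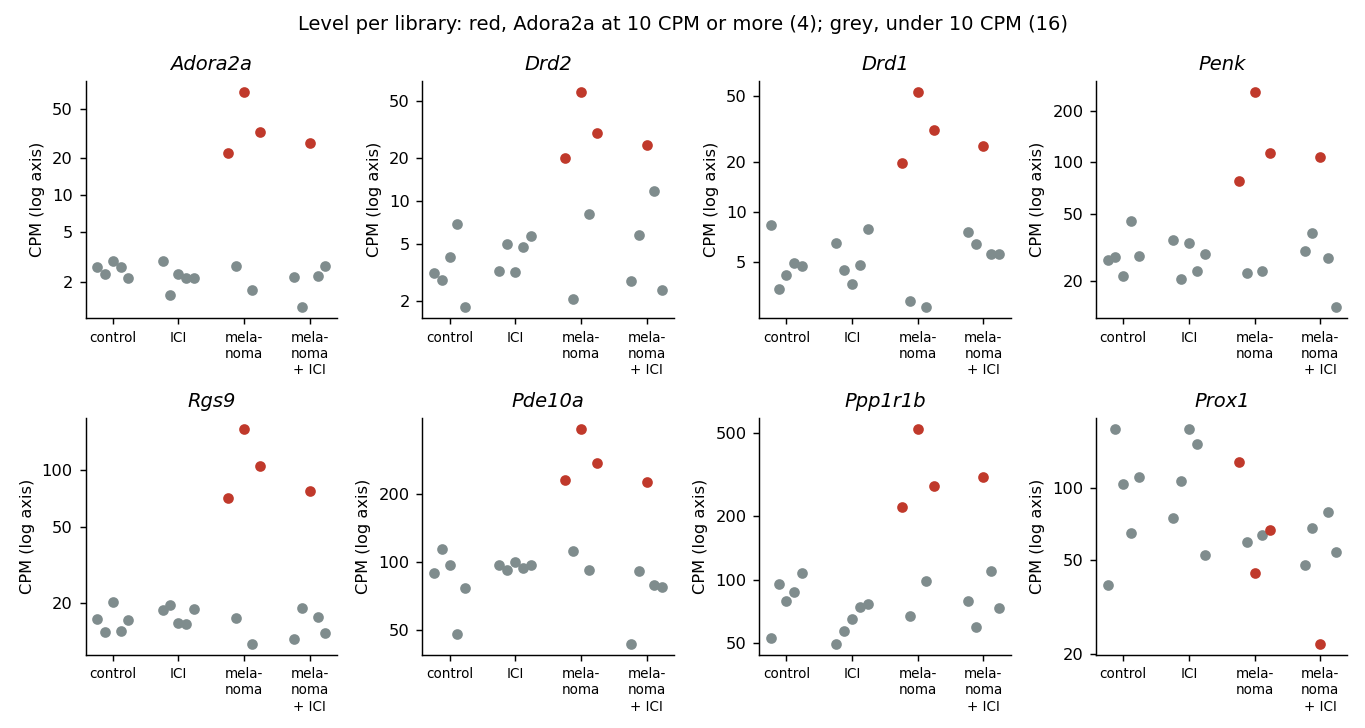
Level of 8 genes in each library, in CPM on a log axis, by study group; each point is 1 library, red for the 4 with Adora2a at 10 CPM or more and grey for the 16 others. The red points of Drd2, Drd1, Penk, Rgs9, Pde10a and Ppp1r1b lie above every grey point, while those of the dentate granule cell gene Prox1 lie among or below them.

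Of the indirect pathway genes tested, Drd2, Penk and Gpr6 were higher. Drd2, the inhibitory dopamine receptor of these neurons, was at 20.1 CPM in melanoma replicate 1, 58.4 in replicate 3, 30.1 in replicate 5 and 24.9 in melanoma plus ICI replicate 3. In the 16 it ran from 1.80 through a median of 3.63 to 11.9 CPM. The sides did not overlap, and melanoma replicate 3 held the most by a wide margin. The means were 33.4 ± 17.2 CPM (SD, n = 4) and 4.59 ± 2.65 CPM (SD, n = 16), a ratio of 7.27. The log2 fold change was 2.83 ± 0.32 (SE) at an adjusted p of 1.52e-05.

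Penk, which encodes the precursor of the enkephalins, was at 78.2, 260.0, 113.5 and 107.1 CPM in the same order of libraries. The 16 ran from 14.1 to 45.2 CPM with a median of 27.5. Again the lowest of the 4 was above the highest of the 16, and the log2 fold change was 2.29 ± 0.22 (SE) at an adjusted p of 1.45e-06. Gpr6, a receptor enriched in indirect-pathway neurons, was at 8.26, 22.2, 10.6 and 6.84 CPM against 0.546 to 3.56 CPM. On the log2 scale the difference was 2.86 ± 0.36 (SE) at an adjusted p of 7.27e-05. Of the 6 tested members of this list, which leaves out Adora2a itself, 3 were higher.

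Genes of the direct pathway were higher in the same libraries. Drd1, the stimulatory dopamine receptor, was at 19.6, 52.8, 31.3 and 25.1 CPM, and at 2.69 to 8.43 CPM with a median of 4.86 in the 16. The 4 libraries lay above all others and in the order that Drd2 and Adora2a had. The 2 sides differed on the log2 scale by 2.59 ± 0.22 (SE) at an adjusted p of 2.6e-07. Tac1, the precursor of substance P, was at 15.6, 45.9, 21.8 and 16.1 CPM against 3.53 to 13.8 CPM, with a log2 fold change of 1.65 ± 0.29 (SE) at an adjusted p of 0.00375.

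Also in this list, Chrm4, the M4 muscarinic acetylcholine receptor, was at 25.8 to 44.2 CPM in the 4 and 10.7 to 29.3 CPM in the 16, so that the sides overlapped. This made a log2 fold change of 0.81 ± 0.19 (SE) at an adjusted p of 0.0481. The fourth member that passed was Slc35d3, a protein needed for D1 receptor traffic, with a log2 fold change of 2.14 (adjusted p = 0.000186). Of 10 tested members 4 were higher, and the list's median was 0.73. Pdyn, the dynorphin precursor of direct-pathway neurons and also of dentate granule cells, was at 21.7 to 43.6 CPM in the 4 and 6.97 to 23.9 CPM in the 16, at an adjusted p of 0.0519.

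Of 28 tested genes that both neuron types share, 19 were higher, with a median log2 fold change of 1.14. Rgs9, a GTPase-activating protein that shortens dopamine receptor signals in the striatum, was at 71.0, 164.7, 104.6 and 77.2 CPM. In the 16 it stayed between 12.1 and 20.2 CPM, with a median of 16.3. The lowest of the 4 was thus far above the highest of the 16, and the 16 were close to one another. The fold change on the log2 scale was 2.66 ± 0.13 (SE) at an adjusted p of 3.73e-11.

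The sodium channel subunit gene Scn4b differed in its order. It was at 123.6 CPM in melanoma replicate 1, 221.6 in replicate 3, 155.5 in replicate 5 and 217.2 in melanoma plus ICI replicate 3, against 7.77 to 65.8 CPM in the 16. Melanoma replicate 3 and melanoma plus ICI replicate 3 were therefore close to level for this gene. Its log2 fold change was 2.54 ± 0.35 (SE) at an adjusted p of 0.000186. Sh3rf2, a scaffold protein gene, was at 5.08, 17.0, 10.9 and 8.43 CPM against 0.0903 to 1.63 CPM, with a log2 fold change of 3.80 ± 0.41 (SE) at an adjusted p of 5.64e-06. For the synaptic membrane protein gene Syndig1l the values were 25.9, 74.6, 42.9 and 31.5 CPM against 5.24 to 14.3 CPM, and the log2 fold change was 2.18 (adjusted p = 1.54e-06).

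Of 10 transcription factors and cofactors in the spiny neuron lists, 4 were higher. Rarb, a retinoic acid receptor of the striatum, had a log2 fold change of 1.67 (SE 0.16) and Foxp2 one of 1.93 (SE 0.34). Meis2 had 0.90 (SE 0.17) and Foxp1 0.53 (SE 0.12), and their adjusted p-values were 1.72e-06, 0.0037, 0.00919 and 0.0292 in that order. For Foxp1 the sides overlapped, with 75.5 to 119.3 CPM in the 4 and 49.0 to 81.3 CPM in the 16. Bcl11b, a factor of spiny neurons that hippocampal neurons also express, was at 76.0 to 166.8 CPM in the 4 and 92.3 to 219.8 CPM in the 16, with a log2 fold change of -0.12 (adjusted p = 0.845). The 5 others that did not pass, Ebf1, Eya1, Isl1, Rxrg and Sp9, had log2 fold changes of 0.49, -0.04, 0.64, 1.84 and 0.21, with adjusted p-values from 0.0878 for Rxrg to 0.928 for Eya1. In all, 18 tested members of the spiny neuron lists did not pass, and 41 of the 44 had a positive log2 fold change.

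Genes at several steps of the cascade from dopamine and adenosine receptors to cyclic AMP were higher. Of 19 tested genes in a list of this cascade, 11 were higher and 0 lower, with a median log2 fold change of 0.90. All 11 also stand in the spiny neuron lists and are among the 26 given above, and of the 6 tested cascade genes in no spiny neuron list 0 passed. At the level of the G protein, Gnal, the alpha subunit of Golf, was at 176.6 to 254.7 CPM in the 4 and 93.6 to 185.8 CPM in the 16, with a log2 fold change of 0.58 ± 0.13 (SE) at an adjusted p of 0.0348. Genes that overlap Gnal hold counts equal to 25.3% of its own, and use of strand in the counting is not stated. Adcy5, adenylyl cyclase 5, was at 251.4, 468.9, 354.7 and 290.8 CPM against 120.6 to 238.7 CPM, with a log2 fold change of 0.94 ± 0.15 (SE) at an adjusted p of 0.0018.

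In the same list, 3 genes for phosphodiesterases, which degrade cyclic nucleotides, were higher too. Pde10a was at 229.8, 388.9, 274.0 and 225.4 CPM against 43.2 to 114.1 CPM, and its log2 fold change was 1.65 ± 0.17 (SE) at an adjusted p of 4.06e-06. Pde7b had a log2 fold change of 1.27 ± 0.14 (SE) at an adjusted p of 1.39e-05 and Pde1b one of 0.90 ± 0.12 (SE) at an adjusted p of 0.000155. In all 3 genes each of the 4 libraries was above each of the 16. Ppp1r1b, which encodes DARPP-32, was at 222.1, 524.1, 279.8 and 308.5 CPM against 49.5 to 110.1 CPM, with a log2 fold change of 2.08 ± 0.17 (SE) at an adjusted p of 2.4e-07.

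Some other members of the cascade did not pass the test. The protein kinase A catalytic subunit genes Prkaca and Prkacb had log2 fold changes of -0.18 and 0.12, with adjusted p-values of 0.266 and 0.754. Rgs7bp, which anchors Rgs9 at the membrane, was at a mean of 222.1 CPM in the 4 and 213.3 CPM in the 16, with a log2 fold change of 0.04. Gng7, the gamma subunit paired with Golf, was at 146.1 CPM in melanoma plus ICI replicate 3 and 344.2 CPM in melanoma replicate 3, and its log2 fold change of 0.64 had an adjusted p of 0.131.

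Of 8 tested genes for opioid peptides and receptors, 2 were higher. Beside Penk, this was Oprk1, the kappa receptor on which dynorphins act, at 4.50, 11.2, 5.92 and 5.91 CPM against 0.333 to 3.16 CPM. The 2 sides differed on the log2 scale by 2.07 ± 0.36 (SE) at an adjusted p of 0.00401. The delta receptor gene Oprd1 had a log2 fold change of 0.58 (adjusted p = 0.31) and the mu receptor gene Oprm1 one of 0.07 (adjusted p = 0.973).

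**Figure D2:**
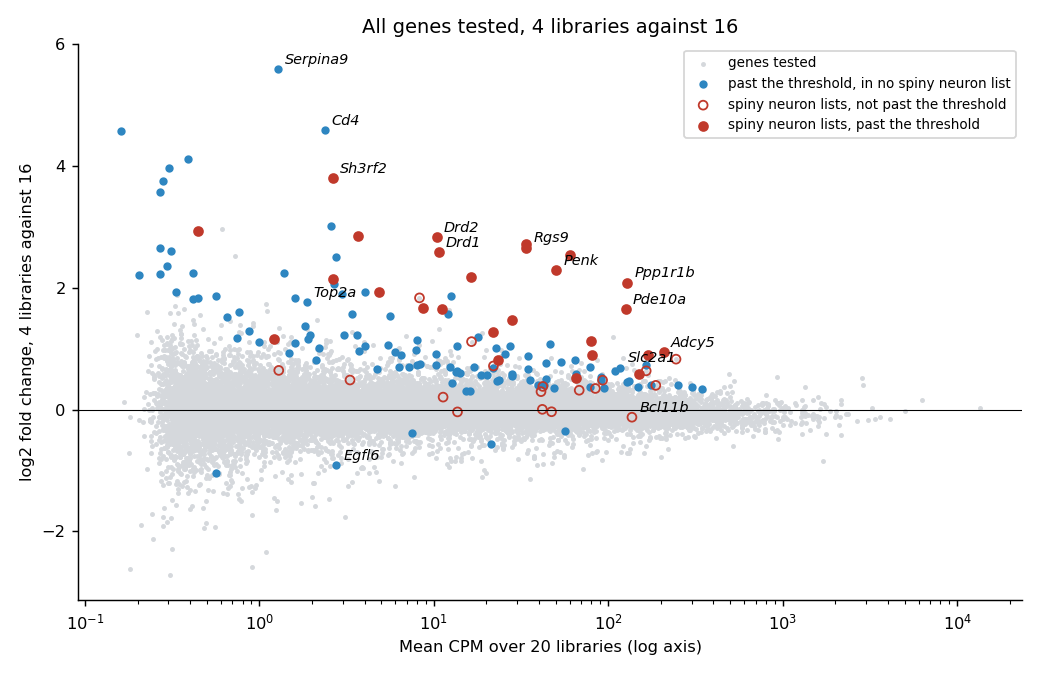
Log2 fold change of the 4 libraries against the 16 for each gene tested, against the mean CPM over 20 libraries on a log axis; red marks the spiny neuron lists (filled where past an adjusted p of 0.05) and blue the other genes past it. Red filled points run from Sh3rf2 at 3.80 down to Foxp1 at 0.53, and few coloured points lie below 0.

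The rule for naming genes, which takes the largest rises, gave 2 genes best known from immune cells. Serpina9 (ENSMUSG00000058260, chr12:103994743-104013755), a serine protease inhibitor gene known from germinal centre B cells, was at 2.52, 10.9, 6.32 and 3.96 CPM against 0 to 0.499 CPM. It passed the filter on low counts only through the 4 libraries, so no test of it is given. Cd4 (ENSMUSG00000023274, chr6:124864692-124888221), the coreceptor of helper T cells, was at 6.53, 17.0, 8.95 and 8.20 CPM against 0.0455 to 0.946 CPM. The fold change on the log2 scale was 4.59 ± 0.26 (SE) at an adjusted p of 2.11e-10. Over the 4 libraries Cd4 had the order of Adora2a, highest in melanoma replicate 3 and lowest in melanoma replicate 1.

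The other T cell genes that could be tested did not pass. Cd3e, part of the T cell receptor complex, was at 0 to 0.0826 CPM in the 4 and 0 to 0.207 CPM in the 16. Of 12 listed T cell genes only Cd4, Lck and Trac had counts enough to be tested, and Lck, a kinase of T cells, had a log2 fold change of -0.08 (adjusted p = 0.919). Summed over the list, the 4 libraries held 8.88 to 19.8 CPM and the 16 held 1.23 to 5.17 CPM, of which Cd4 made up the larger part in the 4. The 11 members other than Cd4 summed to 1.63 to 2.79 CPM in the 4 and 1.18 to 4.59 CPM in the 16, and the 9 other than Cd4, Lck and Trac were each at or below 0.333 CPM in all libraries.

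The rule for naming genes also gave Ptprv, Nexn and Krt80. Ptprv, a receptor tyrosine phosphatase gene, had a log2 fold change of 3.02 ± 0.35 (SE) at an adjusted p of 1.63e-05, and Nexn, an actin-binding protein gene, was at 4.46 to 13.8 CPM in the 4 and 0.744 to 3.16 CPM in the 16 (adjusted p = 3.11e-06). Both were highest in melanoma replicate 3, at 14.6 and 13.8 CPM. Krt80, a keratin gene, was instead highest in melanoma plus ICI replicate 3, at 6.10 CPM, and overlapped the 16, which reached 2.56 CPM. On the log2 scale the difference was 2.24 ± 0.52 (SE) at an adjusted p of 0.0434.

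The 4 named falls were small. Egfl6, a secreted matrix protein gene, was at 1.36 to 1.80 CPM in the 4 and 2.03 to 4.71 CPM in the 16, with a log2 fold change of -0.91 ± 0.20 (SE) at an adjusted p of 0.0309. All 4 libraries were below all 16 for this gene, as for 8 genes tested (0.0429%). Tmem200a, Lrrn3 and A930004D18Rik followed at -0.56, -0.35 and -0.38, each with an adjusted p of 0.0481. The fifth gene, Hk1os, had a log2 fold change of -1.04 at a mean of 0.311 CPM in the 4 and 0.63 CPM in the 16, and lies opposite the far more abundant Hk1. No member of any marker list was called lower.

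The order of the 4 libraries was partly shared among the spiny neuron genes. All 26 that were higher were highest in melanoma replicate 3, 23 were lowest in melanoma replicate 1 and the other 3 in melanoma plus ICI replicate 3. The full order of Adora2a was found in 15 of the 26. Of all 44 tested members, 35 were highest in melanoma replicate 3, 32 were lowest in melanoma replicate 1 and 17 had the full order. The excess of a gene is its CPM in a library minus its mean CPM over the 16, and here it is given as a percentage of the excess in melanoma replicate 3. Over the 26 genes its median was 29.5% in melanoma replicate 1, 53.1% in melanoma replicate 5 and 41.4% in melanoma plus ICI replicate 3. Adora2a gave 29.9%, 45.1% and 36.5% in the same libraries. Drd1 gave 30.2%, 54.7% and 41.7%, and Drd2 gave 28.8%, 47.3% and 37.8%.

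A few members departed from this in melanoma plus ICI replicate 3. There Scn4b reached 97.7% of the excess in melanoma replicate 3, Foxp2 88.9% and Chrm4 80.9%, while Tac1 reached 21.9% and Gpr6 25.4%. These percentages describe the 4 libraries that Adora2a selected, and were given no test.

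**Figure D3:**
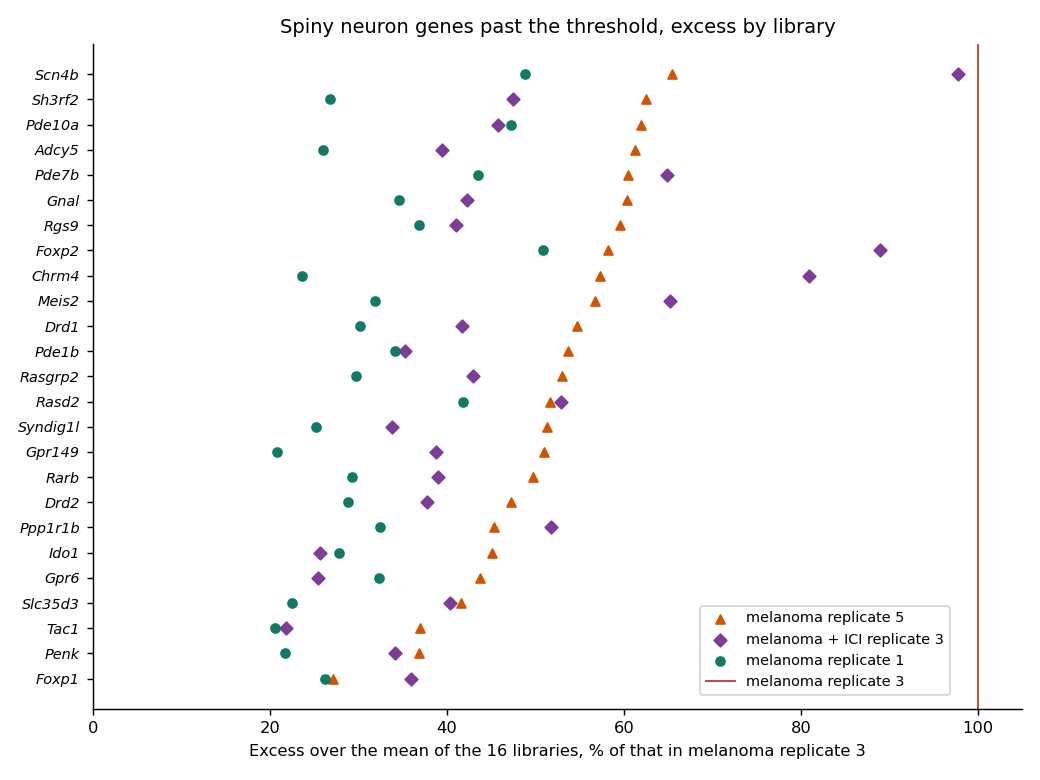
Excess of spiny neuron genes that were higher, as a percentage of the excess in melanoma replicate 3 (vertical line at 100%), in the 3 other libraries. Points of melanoma replicate 1 lie mostly to the left, with a median of 29.5% over all 26 genes, and those of melanoma plus ICI replicate 3 reach 97.7% for Scn4b.

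The genes that were higher and stood in no spiny neuron list fell into different patterns over the 4 libraries. Of these genes, 64 were highest in melanoma replicate 3, 36 in melanoma plus ICI replicate 3, 2 in melanoma replicate 1 and 2 in melanoma replicate 5. The genes in the next 3 paragraphs were chosen after their values were seen.

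Some receptor, channel and synaptic genes were among those highest in melanoma replicate 3. The serotonin 1B receptor gene Htr1b was at 13.5, 19.3, 15.8 and 12.3 CPM against 6.13 to 11.5 CPM, with a log2 fold change of 0.74 ± 0.13 (SE) at an adjusted p of 0.00389. The related Htr1d had one of 1.86 ± 0.39 (SE) at an adjusted p of 0.0202. The potassium channel gene Kcna5 had a log2 fold change of 1.94 ± 0.26 (SE) at an adjusted p of 0.000143, the synaptotagmin gene Syt6 1.87 ± 0.19 (SE) at an adjusted p of 4.05e-06 and the synaptic vesicle protein gene Sv2c 0.89 ± 0.19 (SE) at an adjusted p of 0.0237. In all 5 of these genes the 4 libraries lay above the 16. Prkch, a protein kinase C gene, was at 7.60, 17.4, 12.1 and 10.3 CPM against 2.90 to 5.08 CPM, with a log2 fold change of 1.53 ± 0.14 (SE) at an adjusted p of 8.31e-07. Htr1b, Htr1d and Sv2c lost their call when melanoma replicate 3 was left out. Htr1d and Sv2c also lost it without melanoma replicate 5 or melanoma plus ICI replicate 3. Kcna5, Syt6 and Prkch kept their call in every omission of 1 library.

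Single genes known from dividing cells were among those that passed. Top2a, a topoisomerase of proliferating cells, was at 2.98, 6.67, 4.65 and 3.07 CPM, and at 0.579 to 3.15 CPM in the 16, with a log2 fold change of 1.76 ± 0.29 (SE) at an adjusted p of 0.00169. Mki67, which encodes the proliferation antigen Ki-67, was at 5.45, 8.20, 6.14 and 2.95 CPM against at most 3.88 CPM, with a log2 fold change of 1.23 ± 0.25 (SE) at an adjusted p of 0.0188. In both genes the sides overlapped, with melanoma replicate 1 and melanoma plus ICI replicate 3 within the range of the 16 for Top2a and the latter alone for Mki67. The mitotic spindle gene Aspm had a log2 fold change of 1.52, the mitotic kinase gene Aurkb 1.83 and the replication gene Clspn 1.17, with adjusted p-values of 0.00564, 0.026 and 0.00155. Mki67 and Aurkb lost their call when any 1 of melanoma replicates 1, 3 and 5 was left out, and Aspm without melanoma replicate 3. Top2a and Clspn kept their call in every omission of 1 library. Top2a and Mki67 stood in a list of 12 genes for progenitors and neuroblasts of the ventricular wall beside the striatum, of which the other 10 did not pass, and among tumour-bearing libraries 0 of the 12 passed. Of these, the neuroblast gene Dcx had a log2 fold change of 0.39 (adjusted p = 0.427) and Dlx1 one of -0.02 (adjusted p = 0.978).

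Among the genes highest in melanoma plus ICI replicate 3 were Slc2a1, Dio2, Klf15 and Kcnh4. Slc2a1, the glucose transporter GLUT1, was at 158.1, 146.8, 158.1 and 216.9 CPM against 77.4 to 135.8 CPM, with a log2 fold change of 0.69 ± 0.12 (SE) at an adjusted p of 0.00408. Dio2, the deiodinase that activates thyroid hormone, was at 59.6, 71.7, 86.2 and 107.8 CPM against 36.0 to 63.3 CPM, with a log2 fold change of 0.78 ± 0.14 (SE) at an adjusted p of 0.00631. Klf15, a factor induced by glucocorticoids, was at 35.8 to 41.3 CPM against 20.6 to 31.3 CPM (log2 fold change 0.55, adjusted p = 0.00322). The potassium channel gene Kcnh4 was at 13.2, 28.7, 21.1 and 40.8 CPM against 3.51 to 16.1 CPM (log2 fold change 1.57, adjusted p = 0.00941). Slc2a1 and Dio2 lost their call when melanoma plus ICI replicate 3 was left out. Kcnh4 lost its call without that library or without melanoma replicate 3, and Klf15 kept its call in every omission of 1 library.

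Marker lists of hippocampus and neighbouring tissue were set beside the division. A list's score is the mean of log2(CPM + 0.5) over its members in a library. Of 10 dentate granule cell genes 0 were called and all 10 had a negative log2 fold change, with a median of -0.58. Against the 6 other tumour-bearing libraries the median was -0.03 and 4 of the 10 were positive. Their score was 5.09, 3.44, 4.59 and 3.11 in the 4 libraries and 3.64 to 5.81 in the 16, so that melanoma replicate 3 and melanoma plus ICI replicate 3 were below all 16. Prox1, a transcription factor of granule cells, was at 128.9, 44.1, 66.7 and 22.0 CPM in the 4 and 39.2 to 178.6 CPM in the 16, with a log2 fold change of -0.47 (adjusted p = 0.667).

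Of 8 CA1 genes 0 were called and 8 were negative, with a median of -0.44. The CA1 score of melanoma plus ICI replicate 3 was 4.19, below the 5.12 to 6.12 of the 16, while the 3 other libraries lay between 5.38 and 5.85. Of 10 genes of fields CA2 and CA3, 0 were called and the median was also -0.44. Their score in melanoma plus ICI replicate 3 was 3.29, below the 3.76 to 4.92 of the 16, and the 3 other libraries lay between 4.08 and 4.31. The astrocyte score of that library was also below all 16, at 6.98 against 7.03 to 7.39. The neocortex score was highest of all 20 libraries in melanoma plus ICI replicate 3, at 5.37 against 3.37 to 5.21 in the 16, and 4.40, 4.54 and 4.58 in the 3 others. Of its 13 genes only Foxp2, which the spiny neuron list also holds, was called, while 11 were positive and the median was 0.41. Among tumour-bearing libraries 10 of the 13 were positive, with a median of 0.39. With the dentate gyrus score as a covariate 93 genes were called over all libraries, 75 of them among the 135, and with the neocortex score, an alternative added after seeing the data, 122 were called and 83 shared.

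Of 8 genes for cholinergic neurons, which include the cholinergic interneurons of the striatum, 0 were called in edgeR although the median was 1.13. Chat, the enzyme of acetylcholine synthesis, was at 1.45 to 3.69 CPM in the 4 and 0 to 2.35 CPM in the 16, with a log2 fold change of 2.52 ± 0.73 (SE) at an adjusted p of 0.146. Of 13 genes of GABAergic interneurons 0 were called, and the median was 0.05. The choroid plexus list had 0 of 10 called and a median of -0.66, within a wide spread of its score over the 16, from 0.61 to 6.75. No member of the lists for thalamus, septum and pallidum, hypothalamus, midbrain dopamine neurons, ependyma, meninges, red blood cells, oligodendrocytes, astrocytes or microglia was called. In the oligodendrocyte list 9 of 10 members were nevertheless positive, with a median of 0.33, and 9 of 10 among tumour-bearing libraries, with a median of 0.30. Its score was 7.67 to 8.10 in the 4 and 6.71 to 8.19 in the 16, and its part in the results was not tested.

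**Figure D4:**
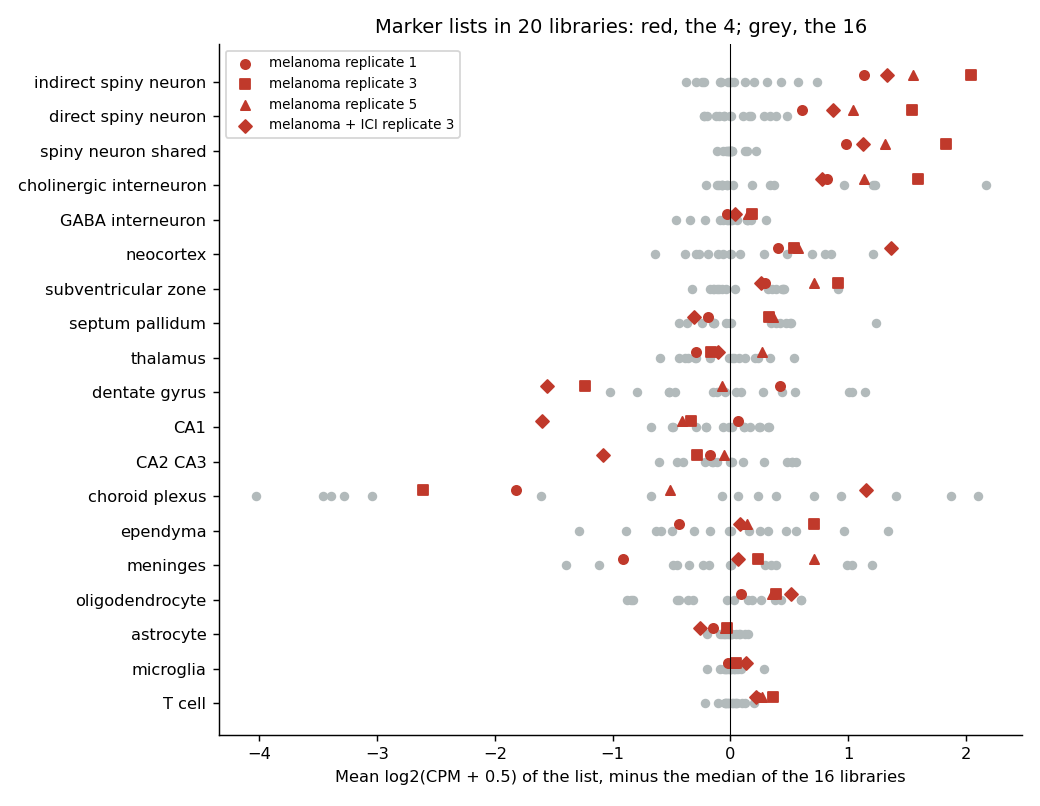
Score of 19 marker lists in each library, as mean log2(CPM + 0.5) minus the median of the 16; red symbols are the 4 libraries and grey points the 16. The 4 lie right of all grey points for the 3 spiny neuron lists (for the shared one from 5.74 to 6.58 against 4.64 to 4.97 before the subtraction) and for the T cell list, which holds Cd4. Melanoma plus ICI replicate 3 lies left of them for dentate gyrus, CA1, CA2 and CA3, and astrocytes, and melanoma replicate 3 for dentate gyrus.

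Among tumour-bearing mice alone, spiny neuron genes were again higher in the 4 libraries, with fewer calls. Of 18009 genes tested in the 4 against the 6 other tumour-bearing libraries, 38 (0.211%) were higher and 1 (0.00555%) was lower, 0.217% in either direction. Of the 44 spiny neuron genes 16 were higher, and their median log2 fold change was 1.04. Here 7 of the 38 and 2 of the 44 passed the filter only through the 4 libraries, as did 762 of the 18009 genes tested. Of the 42 other spiny neuron genes 15 were higher. Of the 39 genes called here, 37 were also among the 135 called over all libraries, and both comparisons contain the same 4 libraries. The other 2 were Me1, which encodes malic enzyme and was the single fall at -0.43 (adjusted p = 0.0426), and the centrosomal gene Nin at 0.39 (adjusted p = 0.0426).

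Rgs9 was at 12.1 to 18.8 CPM in the 6 libraries, with a log2 fold change of 2.76 ± 0.21 (SE) at an adjusted p of 0.000341. Cd4 had one of 4.28 ± 0.32 (SE) at an adjusted p of 0.000341, Drd1 2.62 ± 0.31 (SE) at an adjusted p of 0.00993 and Penk 2.40 ± 0.32 (SE) at an adjusted p of 0.0111. Drd2 was at 2.06 to 11.9 CPM in the 6, and its log2 fold change of 2.58 (SE 0.48) had an adjusted p of 0.0836. The highest of those 6 values belonged to melanoma plus ICI replicate 4. Tac1 was at 1.56 ± 0.35 (SE) at an adjusted p of 0.163 and Adcy5 at 0.90 ± 0.19 (SE) at an adjusted p of 0.122, close in size to the values over all libraries.

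Of Top2a, Mki67, Aspm, Aurkb and Clspn, only Clspn passed in this comparison. Clspn had a log2 fold change of 1.28 ± 0.22 (SE) at an adjusted p of 0.0458, Top2a one of 1.58 ± 0.40 (SE) at an adjusted p of 0.196 and Mki67 one of 1.45 ± 0.28 (SE) at an adjusted p of 0.0858. Slc2a1 was at 0.63 ± 0.17 (SE) at an adjusted p of 0.232 and Dio2 at 0.74 ± 0.21 (SE) at an adjusted p of 0.232.

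With a mean for each study group in the model over all libraries, 15 of the 44 spiny neuron genes were higher, and 39 genes in all were called in place of 135. Drd1 kept an adjusted p of 0.000552, Rgs9 one of 1.24e-06 and Cd4 one of 8.87e-06, while Gpr6 went to 0.0781 and Tac1 to 0.18. Their log2 fold changes in that model were 2.87 and 1.73, beside 2.86 and 1.65 without the group means. Without melanoma replicate 3 the count of spiny neuron genes that were higher was 20, and the total was 58. Without it Drd2 had a log2 fold change of 2.44 (adjusted p = 0.000537) and Tac1 one of 1.19 (adjusted p = 0.121).

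The 4 libraries also bear on the study's own comparison of tumour-bearing with tumour-free mice, averaged over antibody treatment. With the division as a term in the model, 0 of 18426 genes (0%) were called in edgeR, with 401 at an unadjusted p under 0.05. Without the term there were 0 calls and 798 at an unadjusted p under 0.05. Over the 44 spiny neuron genes the median effect of melanoma was 0.52 on the log2 scale without the term and 0.02 with it, and 40 and 23 of them were positive. With the 4 libraries left out the median was -0.03. At an unadjusted p under 0.05 there were 27 of the 44 without the term and 3 with it. All 4 libraries are tumour-bearing and were chosen by Adora2a, a transcript of the same neurons. Giving them a term, or leaving them out, therefore lowers this effect by construction. What made these genes high in the 4 was not tested.

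For single genes that were higher in the 4 libraries, the effect of melanoma also moved by more than its SE. The term takes up their excess by construction, so the move shows nothing beyond the division itself. That of Drd2 was 1.87 (SE 0.48) without the term and 0.45 (SE 0.38) with it, and that of Drd1 was 1.45 (SE 0.44) and -0.21 (SE 0.26). For Rgs9 the values were 1.40 (SE 0.40) and -0.14 (SE 0.15), and for Cd4 they were 3.41 (SE 0.73) and 0.50 (SE 0.35). None of these passed after adjustment with either model. The lowest adjusted p of the 44 without the term was 0.947.

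**Figure D5:**
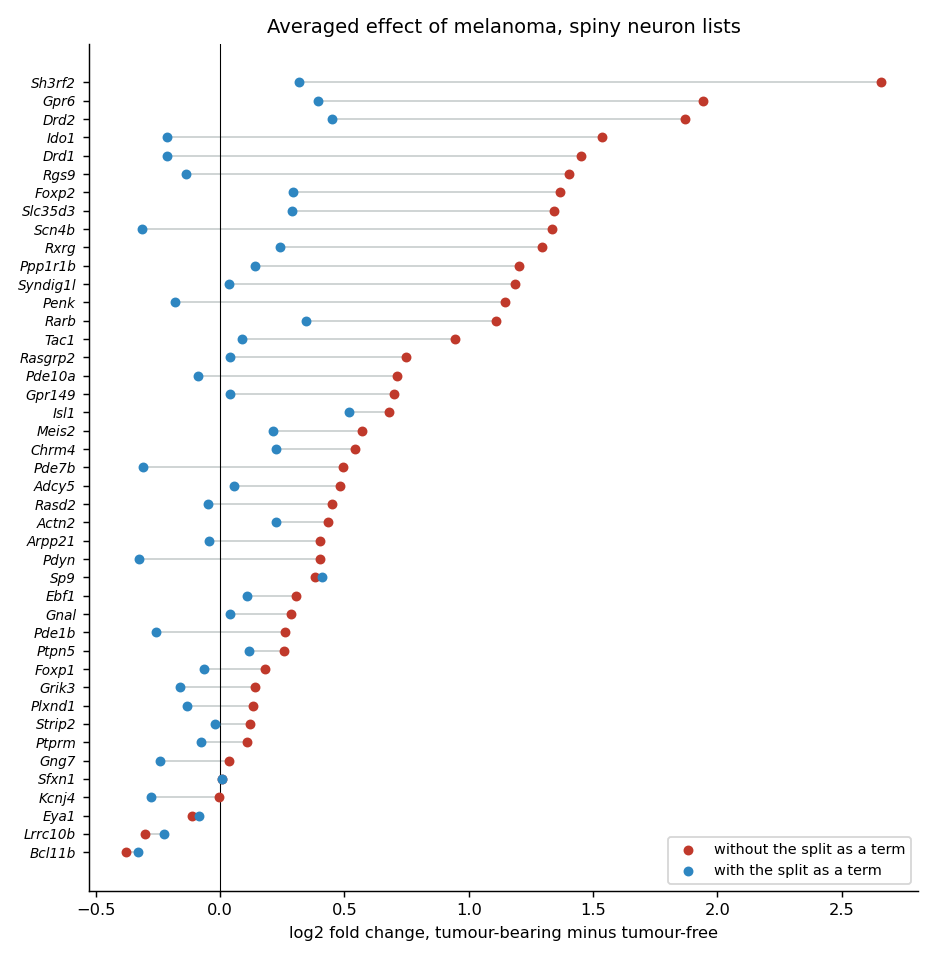
Averaged effect of melanoma (log2 fold change, tumour-bearing minus tumour-free) for genes of the spiny neuron lists, in red without and in blue with the division of libraries as a term; lines join the values of a gene. Over all 44 genes the median is 0.52 without the term and 0.02 with it. The term takes up the excess of the 4 libraries, all tumour-bearing, by construction.

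The rule for likeness ranked 15473 genes by the Spearman correlation of CPM with Adora2a over the 20 libraries, which share tissue source and depth. Among the 5 most alike were Dlgap3 at 0.82, Shmt2 at 0.75, Ppp1r3g at 0.69 and Vps9d1 at 0.69. Within the 16 libraries alone, where Adora2a rests on 30 to 70 counts, Dlgap3 was at 0.81 and Ppp1r3g at 0.44. Ranked by Pearson correlation of log2 values, the leading genes were Rgs9 at 0.97, Serpina9 at 0.97 and Cd4 at 0.97, which follow the gap between the 4 and the 16. These correlations are descriptions of the 20 libraries.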

How the data were processed

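Bulk RNA of 20 mouse hippocampi was sequenced, and groups and replicate numbers come from the sample titles. The authors deposited 1 table of raw counts per library, in the layout of featureCounts per the file headers. The submitters' processing notes list STAR 2.5.2b and DESeq2 1.16.1. Use of strand, handling of multi-mapping reads and the genome build are not given in the sources used here. Of 49671 gene identifiers, 49412 occur in GENCODE M21 (GRCm38) and 45214 have the same start and end there. Symbols come from it, and 345 identifiers without one hold 0.0702% of counts.

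Genes passed filterByExpr with the division of libraries as the group, at a minimum count of 10 and a total of 15. Counts were scaled by TMM (factors 0.97 to 1.05) and tested with edgeR 4.0.16 (robust quasi-likelihood) in R 4.3.3. P-values were adjusted by Benjamini-Hochberg over all genes tested but Adora2a, at a threshold of 0.05. CPM values use the column total without TMM. Fold changes are on the log2 scale and SE is log2 fold change divided by the square root of F. The members and lists were chosen with earlier results of these data known. Named genes are the 14 largest rises and up to 10 largest falls past the threshold with a mean of at least 1 CPM, of which 4 falls qualified, and members of the lists; a few genes that this rule names are not reported here, and are left out of the labelled plots but kept in all counts. All 20 libraries were used. Over the 40 pairs within groups, a chi-square statistic per gene lay between 11.5 and 133.7, so none agreed within sampling noise. The labels describe 1 hippocampus per mouse.

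On simulated counts with the same 4 against 16 libraries, 75% of 2-fold and 95% of 4-fold changes were recovered, with 7 false calls among 18658 genes. For 4 against 6 the shares were 68% and 92%, with 6 false calls. Alternatives were size factors, DESeq2 1.42.0, limma 3.58.1 voom with quality weights, no filter, study group, replicate number, tissue scores, thresholds of 5 and 20 CPM for Adora2a, and leaving out libraries.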

Additional observations from a re-analysis of the deposited data

Results flagged for a closer look

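Among 84 list scores tested for a library far from its fellows, 3 stood apart. Chance gives about 1 in 20, so 3 of 84 is no more than chance would give. All 3 lie in the 6 tumour-bearing libraries with Adora2a under 10 CPM. The score of the cholinergic neuron list was 1.88 in melanoma plus ICI replicate 4 and between -0.40 and 0.08 in the other 5. That library also had the highest Drd2 of the 6, at 11.9 CPM. The score of the hypothalamus list was 0.76 in melanoma plus ICI replicate 2, beside -0.37 to 0.04 in the others. The score of the microglia list was 4.82 in melanoma plus ICI replicate 1, beside 4.70 to 4.74 in the others.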

How the results depend on the processing

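Over all libraries, where 135 genes were called (130 higher, 5 lower), DESeq2 called 259 (223 and 36) and limma voom 608 (478 and 130). A mean for each study group left 39 calls, and the fit with the replicate block left 57. Same-numbered libraries had a mean correlation of 0.03 between their deviations (from -0.39 to 0.59 over 30 pairs), and 6 of 20 libraries matched their own number best, so the numbers do not pair the samples. Leaving out 1 library gave 58 to 159 calls, the lowest without melanoma replicate 3, with 77 without melanoma replicate 5 and 70 without melanoma plus ICI replicate 3. Without the pair that stood apart on the first component, an alternative chosen after seeing the data, there were 204. Among tumour-bearing libraries, where 39 genes were called, DESeq2 called 277 (229 and 48) and voom 155 (135 and 20). A mean for each study group gave 31 calls (25 and 6), 22 of them among the 39. The fit with the replicate block called 1 gene, which was not among the 39. Leaving out 1 library gave 22 to 47, the lowest without melanoma replicate 5. Within the melanoma group alone, also added after seeing the data, edgeR called 0 genes, with 1500 at an unadjusted p under 0.05, and Rgs9 had a log2 fold change of 2.92. The averaged effect of melanoma had 0 calls under each alternative run, with 227 to 1155 genes at an unadjusted p under 0.05 when 1 library was left out, 420 in DESeq2 and 474 with the replicate block.

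None of the 135 genes called over all libraries changed direction under an alternative run, while 94 of 185 list members that did not pass changed sign at least once, Bcl11b among them. Many calls were nevertheless lost. Of the 135 genes, 47 kept their call in every omission of 1 library and 88 lost it at least once, 79 of them without melanoma replicate 3. With study group in the model, Gpr6, Krt80 and the 4 named falls no longer passed. Krt80, Egfl6, Tmem200a, A930004D18Rik and Lrrn3 did not pass with the replicate block or with the dentate gyrus score as a covariate, and Krt80, A930004D18Rik and Lrrn3 did not pass with no filter. With the neocortex score as a covariate, added after seeing the data, Egfl6, Tmem200a, A930004D18Rik and Lrrn3 did not pass. When each of the 20 libraries was left out in turn, the call was lost in 17 cases for A930004D18Rik, 17 for Lrrn3, 15 for Tmem200a, 13 for Krt80 and 4 for Egfl6, and in 0 for the other largest rises named, leaving aside Serpina9. Of the 25 spiny neuron genes that were higher, leaving aside Ido1, 19 kept their call in every such omission. The 6 others, Chrm4, Foxp1, Gnal, Gpr149, Meis2 and Tac1, each lost it at least without melanoma replicate 3, Chrm4 in 13 cases and Foxp1 in 8. Thresholds of 5 and 20 CPM for Adora2a picked the same 4 libraries. Power for changes under 2-fold was not simulated.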

Other observations

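Some of the largest rises were of genes close to 0 in the 16 libraries, chosen here after their values were seen. Of the 130 genes that were higher, 26 had a mean under 1 CPM in the 16. Ankk1, a kinase gene next to Drd2 at chr9:49415194-49427021, was at 0.496, 2.34, 1.23 and 0.855 CPM in melanoma replicates 1, 3 and 5 and melanoma plus ICI replicate 3, and at 0 to 0.208 CPM in the 16. Gpx6, a glutathione peroxidase gene, was at 0.455, 1.35, 0.614 and 0.427 CPM against 0 to 0.0867 CPM, and the olfactory receptor gene Olfr1393 was at 1.03, 3.38, 1.23 and 0.816 CPM against 0 to 0.252 CPM. In these 3 genes the sides did not overlap. They passed the filter on low counts only through the 4 libraries, so no test of them is given.

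The antisense gene 1700003D09Rik, opposite Ppp1r1b, had a log2 fold change of 1.89 (adjusted p = 0.026). A830012C17Rik, opposite Penk, had a mean of 0.959 CPM in the 4 and 0.148 CPM in the 16, and is given no test, since it too passed the filter only through the 4 libraries. Use of strand in the counting is not stated, so reads of each pair cannot be told apart.

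Cd163, a scavenger receptor of macrophages at the borders of the brain, was at 1.94, 4.46, 4.34 and 3.77 CPM in the 4 libraries and 0.542 to 2.64 CPM in the 16. Its log2 fold change was 1.23 ± 0.24 (SE) at an adjusted p of 0.00981, and 1.05 (adjusted p = 0.133) among tumour-bearing libraries. Over all libraries its call was lost without melanoma replicate 3, melanoma replicate 5 or melanoma plus ICI replicate 3. The microglia list had 0 of 10 genes called, with a median of 0.01.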
